A study of Homo sapiens with 6 samples.

Results

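The clustered protocadherins are 3 neighbouring gene groups on the long arm of human chromosome 5, named alpha, beta and gamma. Members were all genes of the deposited transcript table with a symbol starting PCDHA, PCDHB or PCDHG and a position on chromosome 5. The rule found 60 genes with 143 transcripts, of 58174 gene IDs with 199167 transcripts in the table. On hg38 the alpha group spans positions 140786136 to 141012347 with 16 genes and 42 transcripts. The beta group spans 141046260 to 141249365 with 20 genes and 44 transcripts, and the gamma group spans 141330571 to 141512981 with 24 genes and 57 transcripts. Of these genes, 15 alpha, 16 beta and 22 gamma genes are protein-coding in GENCODE release 29. The rule also took the pseudogenes PCDHA14, PCDHB17P, PCDHB18P, PCDHB19P, PCDHGB8P and PCDHGB9P and the antisense gene PCDHB1-AS1.

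RNA was sequenced from MDA-MB-231, an established human line of triple-negative breast cancer. One group, NC, has the genotype control, and the other 2, KO1 and KO2, have the genotype ARID1A knockout. ARID1A belongs to the BAF complex, which moves and evicts nucleosomes, and contacts DNA. The labels list 2 samples in each group, and name no treatment, no age of culture and no clone. The table has 1 column of estimated counts for each group, so no value here has an error between cultures, and each bracketed range beside a fold or a share of counts is an exact 95% interval (Clopper-Pearson) for counting error alone.

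Clustered protocadherins are single-pass cell surface proteins of the cadherin superfamily that bind copies of themselves on a neighbouring cell. They are best known from neurons, where each cell uses its own combination of isoforms and so can tell its own branches from those of other cells. In the alpha and gamma groups every variable first exon has its own promoter and encodes the extracellular part, and it is spliced to 3 constant exons that all isoforms of the group share. Beta genes have a single coding exon and no constant part. Promoter choice involves CTCF, cohesin, distant enhancers and DNA methylation, and the promoters carry a conserved element with the core CGCT. Clustered protocadherin promoters are often methylated in tumours, breast tumours included.

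The constant exons matter here because a short read from them fits every isoform of the group. In the alpha group they are 59, 89 and 2721 bases long and in the gamma group 59, 89 and 2035 bases. The gamma exons lie at 141494807 to 141494865, 141505393 to 141505481 and 141510947 to 141512981. A 75-base stretch was counted as unique when found in no other member gene, and other genes of the annotation were not searched. Among protein-coding members, the unique share of a gene's stretches had a median of 53.5% in the alpha group (lowest to highest gene 40.6% to 78.6%). It was 91.2% in the beta group (65.4% to 100%) and 56.6% in the gamma group (30.7% to 70.3%). The lowest beta value, 65.4%, was that of PCDHB8. Beta genes were therefore the ones whose counts could best be told apart from those of other members.

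The promoter element is shown first, since each member is read from its own promoter. RefSeq sequences (GRCh38.p14, 250 bases before to 50 after the start) were matched by symbol for 47 of the 60 members, 13 alpha, 14 beta and 20 gamma. Each line gives 44 bases of the gene strand, 5′ to 3′, with CGCT in capitals. The alpha, beta and gamma genes shown are a selection of those that have counts and hold one of the forms searched. Others with counts, PCDHB4 and PCDHB10 among them, also hold a form and are not shown.
PCDHA1 (chr5:140786082-140786125): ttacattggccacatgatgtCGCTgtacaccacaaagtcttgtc
PCDHA7 (chr5:140834168-140834211): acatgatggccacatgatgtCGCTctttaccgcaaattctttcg
PCDHA10 (chr5:140855837-140855880): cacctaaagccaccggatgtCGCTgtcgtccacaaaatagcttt
PCDHB2 (chr5:141094540-141094583): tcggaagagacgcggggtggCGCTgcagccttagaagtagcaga
PCDHB5 (chr5:141135175-141135218): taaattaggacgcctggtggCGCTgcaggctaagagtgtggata
PCDHB8 (chr5:141177773-141177816): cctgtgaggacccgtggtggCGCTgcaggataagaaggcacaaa
PCDHB16 (chr5:141182306-141182349): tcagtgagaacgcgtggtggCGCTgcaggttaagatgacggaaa
PCDHB9 (chr5:141187070-141187113): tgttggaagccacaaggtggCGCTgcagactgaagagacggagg
PCDHB12 (chr5:141208639-141208682): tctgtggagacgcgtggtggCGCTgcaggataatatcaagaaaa
PCDHB13 (chr5:141213861-141213904): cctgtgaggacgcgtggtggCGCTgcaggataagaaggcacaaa
PCDHGA3 (chr5:141343763-141343806): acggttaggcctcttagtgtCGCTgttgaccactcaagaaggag
PCDHGB2 (chr5:141359917-141359960): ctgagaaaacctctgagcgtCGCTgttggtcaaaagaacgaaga
PCDHGA6 (chr5:141373831-141373874): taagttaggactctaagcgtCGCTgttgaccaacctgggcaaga

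CGCT on the gene strand was present in 46 of the 47 member promoters and in 54.3% of all 35116 promoters of the table. Longer forms, chosen after these sequences were seen and all containing CGCT, were unevenly spread over the groups. GGCGCTG was in 12 of 14 beta promoters, in 0 alpha and 0 gamma promoters, and in 6.5% of all promoters. TGTCGCT was in 10 of 13 alpha, 1 beta and 3 gamma promoters and in 0.98% of all. CGCTGTT was in 13 of 20 gamma, 0 alpha and 1 beta promoters and in 1.2% of all. Counted on either strand, the shares of all promoters were 70.0% for the core and 11.5%, 1.76% and 2.26% for the beta, alpha and gamma forms. The member counts stayed as given, except that the beta form was then also in 3 gamma promoters. Member promoters had a median GC content of 37.3% (alpha), 40.9% (beta) and 42.0% (gamma) against 58.7% over all promoters, and a median of 7, 7.5 and 7 CpG dinucleotides against 14. A match is a stretch of letters, and binding or methylation was not measured.

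Total estimated counts were 25801499 to 26798753 per column, of which the 60 members took 0.0107% (NC), 0.00627% (labelled KO1) and 0.013% (labelled KO2). Mitochondrially encoded genes took 12.8%, 20.5% and 16.9% in the same order, and their part in the differences was not tested. Levels are in CPM, counts scaled by TMM to a common library size, where 3 counts, the floor used for a column at 0, correspond to 0.107 CPM in NC and KO2 and 0.13 CPM in KO1. ARID1A was at 77.3, 45.7 and 83.9 CPM in NC, KO1 and KO2. Its RNA was thus 1.69-fold lower (1.57 to 1.82) in the column labelled KO1 and not lower in the column labelled KO2, so the latter is named by its label only. Markers of the line were present (VIM, a mesenchymal filament, at 3411, 4719 and 2925 CPM), PGR was at 0 counts, and ESR1 was at 0, 0 and 0.5 CPM, whereas ERBB2 was at 75.7, 28.0 and 52.4 CPM. The summed neuron markers were at 21.2, 7.91 and 25.0 CPM, an order that the summed beta genes share. Most of that sum in NC and KO2, but not in KO1, was the tubulin TUBB3 (13.4, 2.78 and 21.7 CPM). The neuron-restricted NEFL, ELAVL4, STMN2 and INA were at 0 counts in every column. Markers at 0 counts numbered 5, 4 and 4 of the list in NC, KO1 and KO2, and the rest had counts there. Of the 10 neuron markers, 3 averaged 1 CPM or more. By the size rule defined next, 0 passed higher and 2 lower in KO1, and 0 higher and 1 lower in KO2. Over all measured genes, 17.4% (KO1) and 9.98% (KO2) passed lower. The median log2 folds of the 3 were -2.23 in KO1 and -0.90 in KO2, so the higher KO2 sum rests on TUBB3. Summed endothelium markers were at 3.5, 0.609 and 6.14 CPM, fibroblast markers at 32.4, 50.5 and 39.6 CPM and leukocyte markers at 0, 0.348 and 0.821 CPM. The part of other cells in the beta levels was not tested.

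A gene is said here to pass the size rule in a comparison of 2 columns when its log2 fold, computed with a prior count of 2, reached 1 in either direction, its counting interval excluded equality and it averaged 1 CPM or more across the columns. The rule gives no p-value. A gene can reach the mean through 1 column alone, and the direction in which it passes is then largely set by the filter. Of the 60 members, 19 reached that mean, 0 alpha, 11 beta and 8 gamma. In KO1 against NC, 3 of the 19 passed higher and 8 lower, against 15.4% of 14524 measured genes that passed higher and 17.4% that passed lower. In KO2 against NC, 6 passed higher and 4 lower, against 11.0% and 9.98% of all measured genes. In KO2 against KO1, 7 passed higher and 1 lower, against 14.9% and 11.2%. On the deposited TPM, KO1 had 1 higher and 9 lower, and KO2 had 7 higher and 4 lower, for which no share over all genes is given. Because 8 of the 19 are gamma genes with shared exons, the groups are taken in turn.

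Alpha genes were almost silent in all 3 columns. The group had 2 counts in NC, all of PCDHA7, 2 counts in KO1, all of PCDHA10, and 8 counts in KO2, all of PCDHA1. These sums were 0.0714, 0.087 and 0.286 CPM, and the KO2 sum was 4.0-fold that of NC with an interval of 0.798 to 38.65. The interval of the sum thus included equality. PCDHA1 alone was at 0 counts in NC and KO1. At the floor of 3 counts it was 2.67-fold higher in KO2 than in NC, with an exact lower limit of 1.71. Of the 16 alpha genes, 13 had 0 counts everywhere, including PCDHAC1 and PCDHAC2, the C-type isoforms that many neurons share.

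The beta total was lower in KO1 than in NC, and not in KO2. Their sum was 48.0 CPM in NC (1345 counts), 25.9 CPM in KO1 (595 counts) and 50.7 CPM in KO2 (1419 counts). The KO1 sum was 1.86-fold below that of NC (1.69 to 2.05), and its log2 fold of -0.89 did not reach the size rule. In KO2 it was 1.06-fold that of NC (0.978 to 1.14), a log2 fold of 0.08. KO2 was 1.96-fold higher than KO1 (1.78 to 2.16), a log2 fold of 0.97. On the deposited TPM scale, which divides by length, the sums were 20.7, 7.17 and 20.1. Beta genes with any count numbered 17, 16 and 18.

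**Figure D1:**
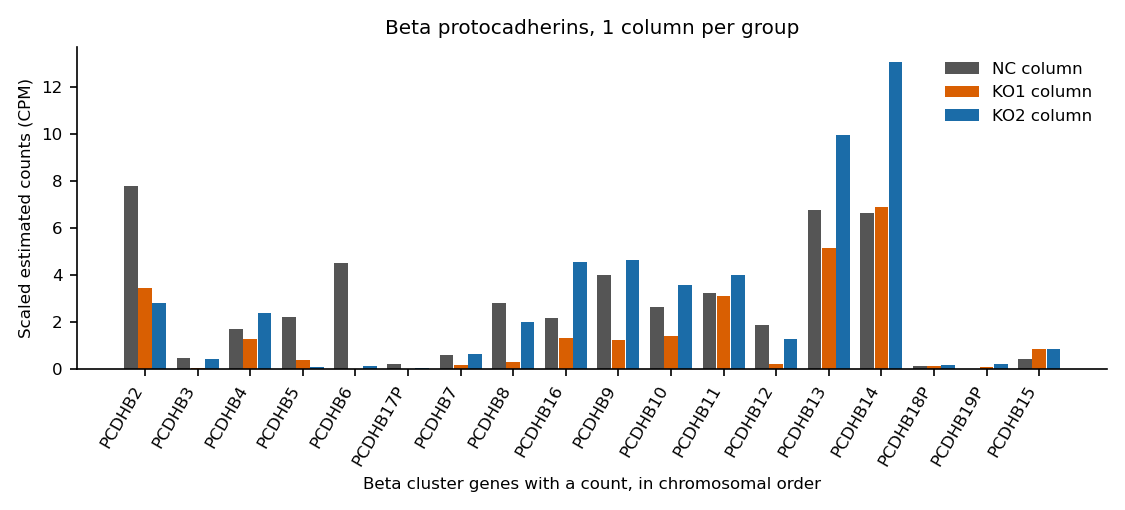
Levels of the beta genes with a count in CPM, in genomic order, with 1 bar for each column (NC, KO1, KO2) and no intervals drawn. PCDHB2 is higher in NC than in KO1 and KO2, and PCDHB6 stands high in NC alone. PCDHB13 and PCDHB14 are the most abundant beta genes in KO1 and KO2.

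Within this near-constant KO2 total, the makeup of the beta group differed. PCDHB2 was at 7.79 CPM in NC, 3.43 CPM in KO1 and 2.79 CPM in KO2 (218, 79 and 78 counts). It was 2.27-fold lower in KO1 (1.75 to 2.97) and 2.80-fold lower in KO2 (2.15 to 3.67). PCDHB6 was at 4.5 CPM in NC (126 counts), at 0 counts in KO1 and at 0.107 CPM in KO2 (3 counts). It was 34.5-fold lower in KO1 at the floor of 3 counts, with an exact lower limit of 27.65, and 42.0-fold lower in KO2 (14.1 to 206.5). PCDHB2 and PCDHB6 were the 2 beta genes that passed lower in both columns, whereas 5.65% of all measured genes did so. PCDHB6 reached the mean through NC alone, so its passing lower was largely set by the filter. PCDHB5, between them in the array, had 62, 8 and 2 counts (2.21, 0.348 and 0.0714 CPM), with log2 folds of -2.43 (KO1) and -3.96 (KO2). Its mean of 0.878 CPM was below the 1 CPM needed. PCDHB3 and PCDHB4, at 0.464, 0.0435 and 0.393 CPM and at 1.68, 1.26 and 2.36 CPM, lie in the same stretch without a low value in KO2.

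As shares of the beta counts, PCDHB2 made up 16.2% in NC (14.3 to 18.3), 13.3% in KO1 (10.7 to 16.3) and 5.5% in KO2 (4.37 to 6.81). PCDHB6 made up 9.37% in NC (7.86 to 11.1), 0% in KO1, which allows up to 0.618%, and 0.211% in KO2. PCDHB14 instead made up 13.8% in NC (12 to 15.8), 26.7% in KO1 (23.2 to 30.5) and 25.8% in KO2 (23.5 to 28.2). The shares of PCDHB13 were 14.1%, 19.8% and 19.7%. The shares of PCDHB2, PCDHB6, PCDHB13 (NC interval 12.3 to 16.1) and PCDHB14 thus lay outside the NC interval in both knockout columns. The KO1 interval of PCDHB2 overlapped that of NC. Other beta genes, PCDHB5 and PCDHB8 among them, also had shares outside their NC interval in both. With PCDHB2, PCDHB5 and PCDHB6 left out, a choice made after their values were seen, the beta sum was 33.5, 22.1 and 47.7 CPM, with log2 folds of -0.60 in KO1, 0.51 in KO2 and 1.11 between KO2 and KO1.

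A second set of beta genes was low in KO1 alone. PCDHB8 was at 2.79, 0.304 and 2.0 CPM in NC, KO1 and KO2, 9.16-fold lower in KO1 than in NC (4.24 to 23.5) and 6.57-fold higher in KO2 than in KO1 (2.99 to 17.1). PCDHB12 was at 1.86, 0.217 and 1.25 CPM, 8.54-fold lower in KO1 (3.44 to 27.4). PCDHB9 was at 4.0, 1.22 and 4.64 CPM, 3.29-fold lower in KO1 (2.16 to 5.17). These 3 genes did not pass in KO2 against NC. In all, 0 of the 11 measured beta genes passed higher, 5 passed lower and 6 passed neither way in KO1 (median log2 fold -0.89, against -0.01 over all measured genes). PCDHB10 (2.64, 1.39 and 3.57 CPM) missed the rule in KO1 and was 2.57-fold higher in KO2 than in KO1. Between KO2 and KO1, 5 beta genes passed higher, 0 lower and 6 neither way, with a median log2 fold of 1.27 against 0.04 over all measured genes.

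Of the beta genes higher in KO2 than in NC, 1 passed the size rule, PCDHB16 (2.18, 1.30 and 4.57 CPM, 2.10-fold higher, 1.54 to 2.89). PCDHB14 was at 6.64, 6.91 and 13.1 CPM and its log2 fold of 0.97 in KO2 fell just short of the rule (1.97-fold, 1.64 to 2.36). PCDHB13 was at 6.79, 5.13 and 9.96 CPM and PCDHB11 at 3.22, 3.09 and 4.0 CPM, and neither passed in any comparison. The counts for KO2 against NC were 1 higher, 2 lower and 8 neither way, with a median log2 fold of 0.31 against -0.003 over all measured genes. Of the beta genes below a mean of 1 CPM, the 2 highest were PCDHB5, given above, and PCDHB15, at 0.429, 0.826 and 0.857 CPM. Place along the array went with the size of the fold only loosely (Spearman's rho across the 11 genes 0.43 for KO1, 0.46 for KO2 and 0.15 for KO2 over KO1), and neighbouring genes are not independent replicates.

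**Figure D2:**
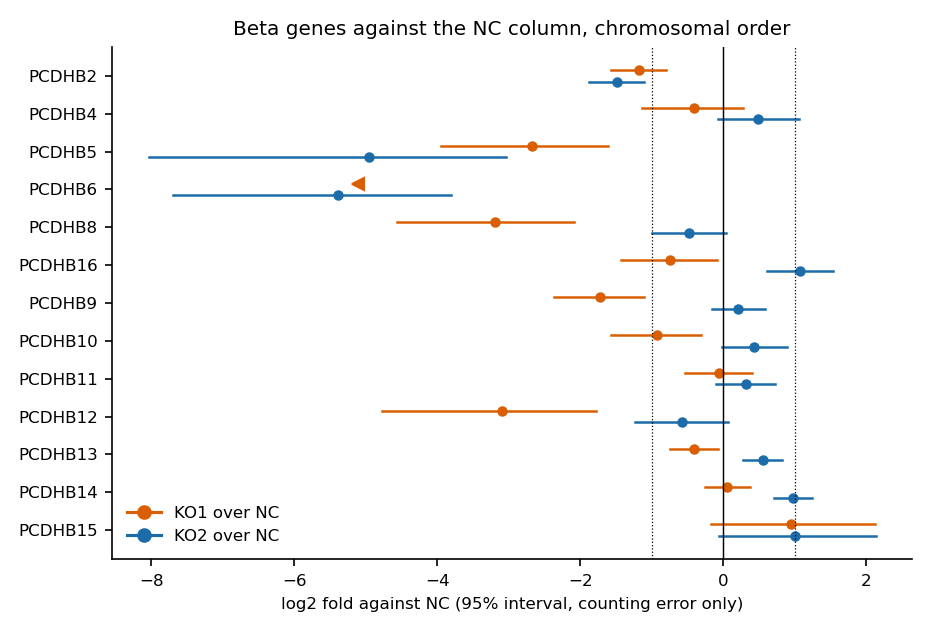
Log2 folds of the beta genes in KO1 and KO2 over NC, in genomic order, with 95% counting intervals. Dotted lines mark a log2 fold of 1 in either direction, and the triangle for PCDHB6 in KO1 is the fold at the floor of 3 counts.

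Gamma genes had the highest total of the 3 groups, and it differed less than single isoforms did. The sum was 53.9 CPM in NC (1508 counts), 44.4 CPM in KO1 (1021 counts) and 70.0 CPM in KO2 (1961 counts). KO1 was 1.21-fold lower than NC (1.12 to 1.32) and KO2 was 1.3-fold higher (1.22 to 1.39), with log2 folds of -0.28 and 0.38. KO2 was 1.58-fold higher than KO1 (1.46 to 1.70), a log2 fold of 0.66. None of the 3 sums passed the size rule, although each interval excluded equality. Gamma genes with any count numbered 20, 21 and 24.

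Single gamma genes differed by far larger folds. PCDHGA3 was at 6.75, 0.130 and 0.0357 CPM (189, 3 and 1 counts), and PCDHGB7 was at 5.79, 0.348 and 0.785 CPM. These 2 genes passed lower in both columns, but they reached the mean through NC alone. PCDHGB1 (4.61, 12.8 and 11.4 CPM), PCDHGA6 (1.32, 3.35 and 3.68 CPM) and PCDHGC4 (0.286, 5.35 and 0.714 CPM) passed higher in both, against 6.22% of all measured genes. Of these, PCDHGC4 reached the mean through KO1 alone. On the deposited TPM, PCDHGB1 and PCDHGA6 no longer passed in KO1 (log2 folds 0.62 and 0.80), and PCDHGC4 in KO2 over KO1 went from -2.78 to -0.18. PCDHGB6 was at 0.286, 0.652 and 7.68 CPM and was 26.9-fold higher in KO2 (13.4 to 63.0), through which alone it reached the mean. PCDHGB2, with 16.0, 17.0 and 9.03 CPM, had the highest level in NC and KO1 and did not pass. In all, 3 of the 8 measured gamma genes passed higher and 3 lower in KO1 (median log2 fold 0.55), 5 higher and 2 lower in KO2 (median 1.09), and 2 higher and 1 lower in KO2 against KO1 (median -0.02).

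These gene values rest mainly on transcripts that contain the shared constant exons, and those estimates went from well over 100 counts to 0 between columns. Of 29 gamma transcripts with constant exons, the numbers with any count were 5, 4 and 9 in NC, KO1 and KO2. Only 1 of them, of PCDHGB2, was above 0 in every column, and 9 of the 13 seen at all were seen in 1 column. Of 28 gamma transcripts without constant exons, 19 were above 0 in every column. The first kind held 75.2%, 66.9% and 59.4% of gamma counts in NC, KO1 and KO2. The short forms overlap the variable exon of the full-length form of the same gene, so their counts also depend on how reads were divided. How the authors' tool divided reads of the constant or variable exons among isoforms was not tested.

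**Figure D3:**
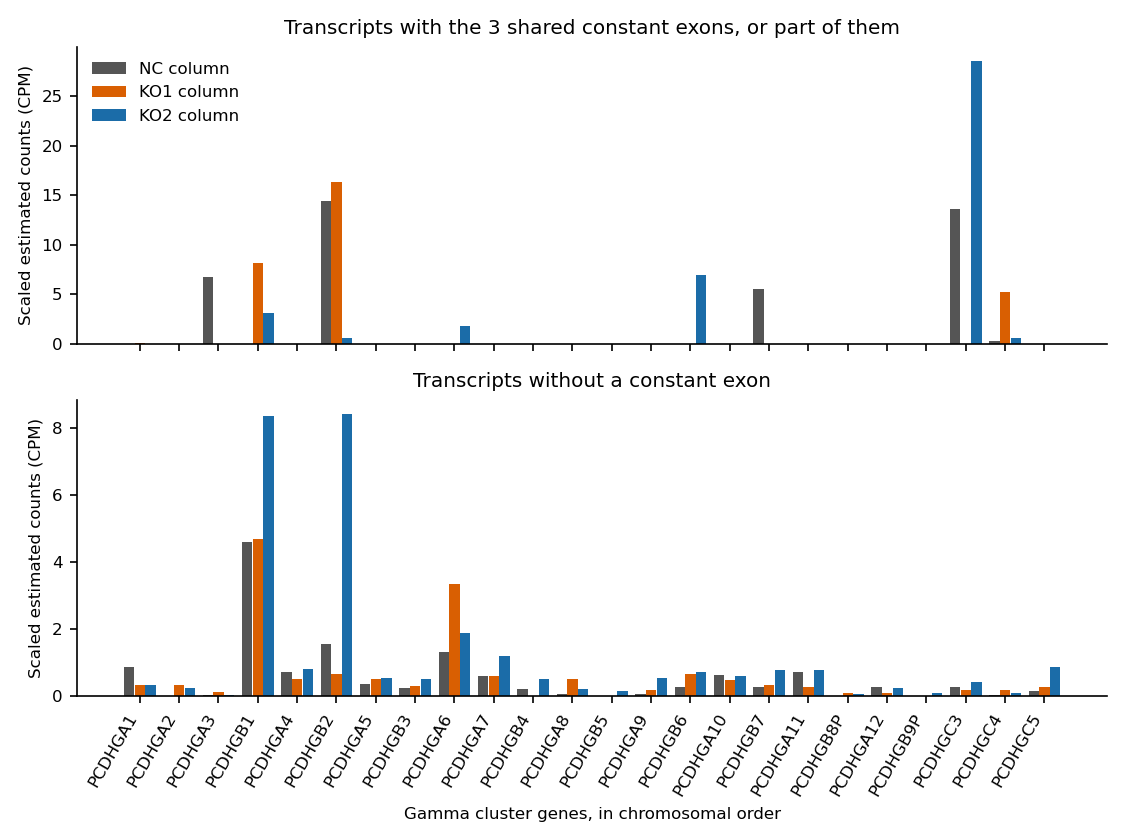
Levels of gamma genes in CPM in NC, KO1 and KO2, with a separate vertical scale in each panel. Transcripts with the constant exons, or part of them, are split from transcripts without them. Most genes have no count in a constant-exon transcript in any column. Most of the genes that do have one show it in 1 or 2 columns. Transcripts without constant exons are mostly present across columns.

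The split shows where each gene's fold came from. The full-length PCDHGA3 transcript had 188, 0 and 0 counts and its short transcript 1, 3 and 1. For PCDHGB7 the values were 154, 0 and 0 for the full-length form and 8, 8 and 22 for the short form. The low values of both genes in the knockout columns are thus those estimated for the full-length forms alone. The full-length PCDHGB6 transcript had 0, 0 and 195 counts and its short form 8, 15 and 20. The PCDHGB1 forms had 0, 187 and 86 counts (full-length) and 129, 108 and 234 counts (short). For PCDHGA6 they had 0, 0 and 50 counts (full-length) and 37, 77 and 53 counts (short). PCDHGB2 had 404, 376 and 17 full-length counts and 44, 15 and 236 short ones, so the full-length form held 90.2%, 96.2% and 6.72% of the gene. The gene total of PCDHGB2 was lower in KO2 than in NC while its short form was higher.

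Without the constant-exon transcripts, a view added after the data were seen, the gamma group had 374, 338 and 797 counts, or 13.4, 14.7 and 28.5 CPM. KO1 then had a log2 fold of 0.14, and KO2 passed with 2.13-fold (1.88 to 2.42), a log2 fold of 1.09. The transcripts with constant exons alone were at 40.5, 29.7 and 41.6 CPM, with log2 folds of -0.45 and 0.04. By these estimates the higher gamma total of KO2 lay in transcripts without the constant exons. Reads of a variable exon fit both forms of a gene, so the place of the difference was not settled. Only 3 gamma genes then had a mean of at least 1 CPM. PCDHGB1 was at 4.61, 4.70 and 8.35 CPM, PCDHGB2 at 1.57, 0.652 and 8.43 CPM and PCDHGA6 at 1.32, 3.35 and 1.89 CPM. In KO1 1 of them passed higher (PCDHGA6) and 1 lower (PCDHGB2), and in KO2 1 passed higher (PCDHGB2).

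The gamma subfamilies A, B and C, defined by the sequence of their variable exons, also differed. A genes summed to 12.4, 7.39 and 9.25 CPM and B genes to 27.2, 31.2 and 30.2 CPM, and neither sum passed. B genes without the constant-exon transcripts were at 7.22, 6.74 and 19.6 CPM and passed in KO2 against both other columns. C genes summed to 14.3, 5.78 and 30.5 CPM and passed in every comparison, 2.48-fold lower in KO1 (2.03 to 3.04) and 2.13-fold higher in KO2 (1.89 to 2.41). Without the constant-exon transcripts, C genes were at 0.464, 0.609 and 1.39 CPM and passed in no comparison, with a log2 fold of 0.34 in KO1. A genes were then at 5.68, 7.35 and 7.46 CPM, and their log2 folds turned from -0.74 and -0.42 to 0.37 and 0.39. The A and C sums thus rest on the constant-exon estimates.

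PCDHGC3 made up most of the C sum in NC (389 of 401 counts) and KO2 (811 of 855), whereas PCDHGC4 did in KO1 (123 of 133). PCDHGC3 was the 1 measured member that passed in opposite directions, which 0.806% of all measured genes did. PCDHGC3, a C-type isoform also used outside the nervous system, was at 13.9, 0.174 and 28.95 CPM. It was 79.9-fold lower in KO1 (31.0 to 294.7) and 2.08-fold higher in KO2 (1.84 to 2.36), where its log2 fold of 1.06 was 2.05 on the deposited TPM. The difference between these folds was not tested, since each column is a single value. Its transcript ENST00000308177 had 381, 0 and 79 counts, ENST00000617641 had 0, 0 and 710 counts, and its transcripts without constant exons had 8, 4 and 12. Of the 2346 bases of ENST00000617641, 92.9% are constant exons, which all full-length gamma isoforms share. PCDHGC4, whose product is the isoform required for survival of many neurons, had 0, 119 and 0 counts of ENST00000306593 and 7, 0 and 17 of ENST00000618371, with 1, 4 and 3 counts in transcripts without constant exons. PCDHGC5 was at 0.143, 0.261 and 0.857 CPM. Of the other gamma genes below 1 CPM, PCDHGA7 was at 0.607, 0.609 and 1.21 CPM and PCDHGA4 at 0.714, 0.522 and 0.821 CPM.

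With both knockout columns as 1 group against NC, edgeR's quasi-likelihood test (two-sided, Benjamini-Hochberg adjusted over 18289 genes) called 0 of 34 members tested, 15 beta and 19 gamma. It called 27 genes, or 0.148%, over the whole table. At an unadjusted p under 0.05 there were 4 members, PCDHGA3, PCDHB6, PCDHGB7 and PCDHB5, all lower, against 7.7% of all genes tested. Their edgeR adjusted p values were 0.0628 for PCDHGA3, 0.105 for PCDHB6, 0.261 for PCDHGB7 and 0.423 for PCDHB5. The fit has 1 residual degree of freedom, assumes that the lone NC column varies like the others, and its p-values measure the spread between the knockout columns. Its filter can keep a gene through 1 column alone. PCDHGA3, PCDHB6 and PCDHB5 had at most 8 counts in each knockout column, so their lower direction was largely set by that filter. DESeq2 was run on the same 18289 genes, so this limit holds for it as well. DESeq2 on the same columns called 2 members, PCDHB6 and PCDHGA3, among 293 genes, with a lowest adjusted p of 0.00113, and edgeR with no filter on low counts called 3 of 45 members tested, among 493 of 28652 genes.

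Genes around the locus, like the rest of chromosome 5, had a positive median log2 fold over NC in KO1, where beta genes were low. Of 93 other genes within 1 Mb of the outermost members, 35 were measured. In KO1, 9 passed higher and 3 lower (median log2 fold 0.44), against 15.4% and 17.4% of all measured genes. In KO2, 5 passed higher and 0 lower (median 0.38), against 11.0% and 9.98%. SPRY4, an inhibitor of receptor tyrosine kinase signalling, was at 45.4, 430 and 219 CPM, and HBEGF, an EGFR ligand, at 45.6, 185 and 111.5 CPM. HDAC3, a histone deacetylase, was lower in KO1 at 81.9, 29.2 and 58.7 CPM, as was SLC35A4 at 123, 60.5 and 107 CPM. TAF7, a subunit of the general transcription factor TFIID that lies between the beta and gamma groups, was at 70.8, 139 and 114 CPM. Of the 635 measured genes of chromosome 5 outside the clusters, 157 passed higher and 73 lower in KO1, and 103 and 39 in KO2. Their median log2 folds were 0.38 (KO1) and 0.29 (KO2), near those around the locus. The beta sum in KO1 was thus lower still when set against its own chromosome (log2 fold -1.27). Copy number was not measured.

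**Figure D4:**
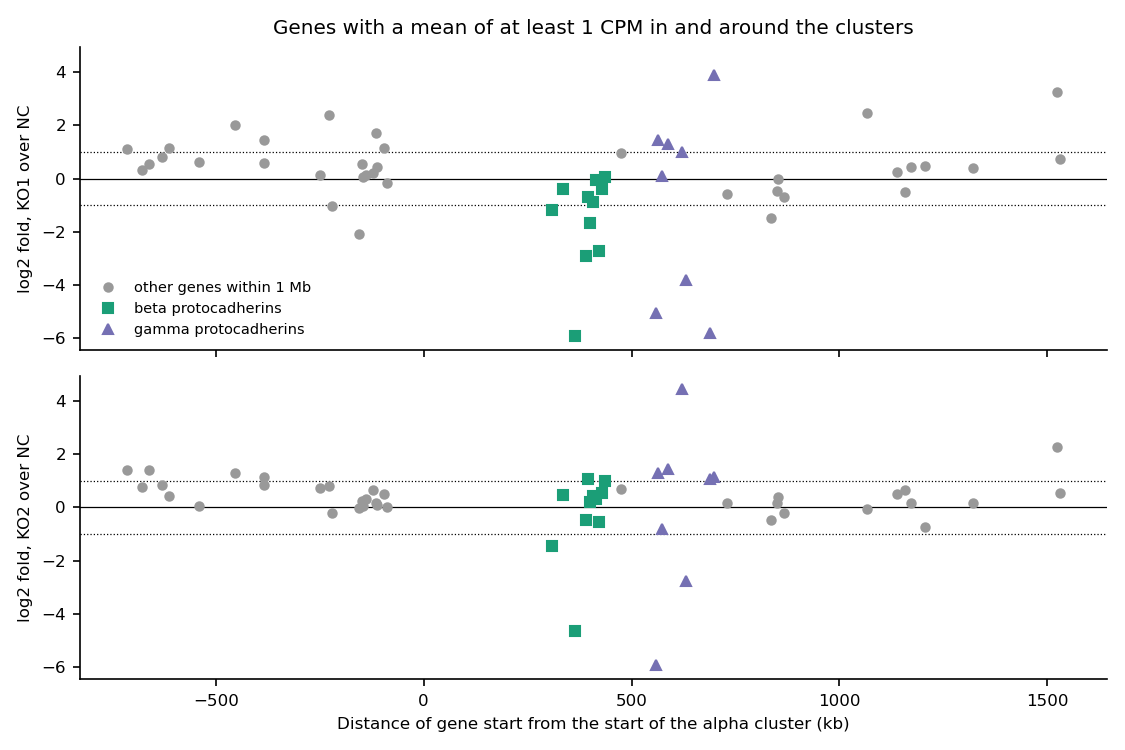
Log2 folds of measured genes in the protocadherin clusters and within 1 Mb of them, in KO1 and KO2 over NC, by distance along chromosome 5. The members lie on both sides of 0. Of the 35 measured neighbours 9 passed higher and 3 lower in KO1, against 15.4% and 17.4% of all measured genes.

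Non-clustered protocadherins, single genes encoding related adhesion proteins, were mostly near silent, with 2 of 12 measured. PCDH1, an epithelial adhesion protein whose gene lies beyond the gamma group, was at 7.61, 42.3 and 7.25 CPM. It was 5.57-fold higher in KO1 (4.79 to 6.49), in the column where the beta genes were low, and close to NC in KO2. PCDH12 was at 2.29, 1.61 and 3.61 CPM and did not pass.

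Of the factors that act at the promoters, CTCF itself was at 71.7, 61.4 and 67.6 CPM. Among 17 measured genes of CTCF, cohesin and promoter choice, KO1 had 1 higher (ESCO1, a cohesin acetyltransferase, 15.9, 37.3 and 23.96 CPM) and 3 lower, against 15.4% and 17.4% of all measured genes, with a list median log2 fold of -0.22. Those lower were SMC1A, a cohesin core subunit (109, 23.7 and 103 CPM), MAZ (126.5, 61.8 and 155 CPM) and WIZ (85.6, 40.9 and 58.9 CPM). In KO2 0 passed either way (median 0.26). Among 24 measured genes of DNA methylation and heterochromatin, 6 passed lower in KO1, against the 17.4% of all measured genes given above, and 0 in KO2. The list as a whole was not low, with median log2 folds of 0.20 and 0.13. UHRF1, which recruits the maintenance methyltransferase, was at 184.5, 17.2 and 160.4 CPM, and DNMT1, that methyltransferase, at 245, 122 and 215.5 CPM. CBX5, encoding heterochromatin protein HP1 alpha, was at 141, 52.5 and 134 CPM, and EHMT2, a histone H3 lysine 9 methyltransferase, at 65.9, 24.2 and 68.6 CPM. EED, a Polycomb subunit, was at 24.9, 8.61 and 23.3 CPM.

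Among 23 measured signalling partners of clustered protocadherins, 4 passed higher and 4 lower in KO1 (median log2 fold -0.09), and 2 higher and 1 lower in KO2 (median 0.06). Over all measured genes 15.4% passed higher and 17.4% lower in KO1, and 11.0% and 9.98% in KO2, so the list stood near the background. LRP5, a Wnt co-receptor, was at 109, 34.8 and 115 CPM, NLGN2, a synaptic adhesion protein, at 96.6, 30.0 and 106 CPM, and CYFIP1, of the WAVE actin regulator, at 114, 48.5 and 66.2 CPM. FYN, a Src-family kinase, was at 55.8, 126 and 42.3 CPM, and LRP6, also a Wnt co-receptor, at 37.9, 26.1 and 77.7 CPM. PTK2B, the kinase PYK2 that the constant domains bind and inhibit, was at 22.4, 5.87 and 9.43 CPM. In these lists of partners and regulators, edgeR called 0 genes. The genes outside the clusters whose spread over the 3 columns was nearest to that of the summed members (102, 70.3 and 121 CPM) were SMIM30 (16.3, 11.3 and 19.2 CPM), CCNT2, CENPBD2P, ASB16-AS1 and OAT, of 11353 genes at a mean of at least 5 CPM. The measure was the Euclidean distance between shares of each gene's own sum, 0.00183 for SMIM30 and 0.00455 for OAT, and 3 columns give it little weight.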

How the data were processed

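RNA was measured in MDA-MB-231 groups NC, KO1 and KO2. Per the file headers, the authors deposited estimated counts and TPM for each transcript and group. Whether a column is 1 library or both samples combined is not given in the sources used here, nor is the tool that estimated the values. The submitters' processing notes name CASAVA, Bowtie2, featureCounts and hg38. The deposited estimated counts are whole numbers and were summed per gene ID. The deposited TPM served as an alternative, and 3 further value columns (FPKM) were not used. Symbols were found for 57392 gene IDs, and all 143 member transcripts lie at the same position in GENCODE release 29.

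Counts were scaled by TMM (edgeR 4.0.16, R 4.3.3) over genes kept by filterByExpr. Single columns were compared by the size rule given in the text. For a column at 0, the fold was computed with a floor of 3 counts in that column. Its limit came from the exact interval, which can lie nearer equality than that fold. Both knockout columns against NC were tested with edgeR's quasi-likelihood test with robust estimation, and DESeq2 1.42.0 was an alternative. Intervals cover counting error only, since fragments carry no molecular identifiers. The fits were tested on simulated data.

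Named members were those with a mean of at least 1 CPM, the 2 highest of the rest in each cluster, the C-type isoforms, transcripts holding at least 10% of a gene with a mean of 5 CPM, and up to 6 genes per other list, highest mean first. TAF7, CTCF, PTK2B and PCDHB3 were named after their values were seen. Members and lists were chosen with earlier results of these data known. Alternatives covered the scaling, the unit, the filter, the prior count, the fold needed, the regional shift and the members summed. Those on constant exons and on robust estimation were added after the data were seen. One gene of the DNA methylation and heterochromatin list is not reported here.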

Additional observations from a re-analysis of the deposited data

Results flagged for a closer look

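PCDHGC3 stood out because its 2 comparisons with the same control went opposite ways. Its log2 fold was -5.81 in KO1 over NC and 1.06 in KO2 over NC. Both share the NC column, each column is a single value, and the difference between the folds was not tested. With transcripts that contain the gamma constant exons left out, the log2 folds were -0.53 and 0.48, on 4 to 12 counts per column.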

How the results depend on the processing

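No paired analysis was possible because the table has 1 column per group and no replicate numbers, so left-out replicates and a replicate block were not run. Of the 98 alternative values for cluster sums and counts of members, 80 kept their direction and side of the threshold. The members passing were 11 (KO1 against NC), 10 (KO2 against NC) and 8 (KO2 against KO1), and became 17, 17 and 14 with no filter on the mean and 2, 2 and 1 with a mean of at least 5 CPM. With constant-exon transcripts left out, 7 passed in KO1 and 4 in KO2. The shares of all genes passing at these other settings are not given, so these counts cannot be read against a background. The beta sum in KO1 over NC passed at log2 -1.12 with total counts, -1.51 with TPM, -1.27 with the chromosome 5 median subtracted and -1.12 without PCDHB14. In KO2 over KO1 the beta sum passed at 1.23 with total counts and 1.47 with TPM, and the gamma sum at 1.65 with TPM. The gamma sum in KO2 over NC passed at 1.09 with transcripts without constant exons alone. DESeq2 called 2 members and edgeR without a filter 3, against 0. Leaving out constant-exon transcripts turned PCDHGB7 to 0.23 in KO1 and 1.25 in KO2, and PCDHGA3 to 0.89 in KO1. The cause was not tested beyond what each alternative leaves out. Depth limits alpha genes, at 2 to 8 counts in all, and every beta gene under about 1 CPM.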
